A study of Mus musculus with 12 samples.

Results

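The amino acid transporter families examined here are families 1, 3, 6, 7, 36, 38 and 43 of the solute carrier genes. A gene was taken as a member when its symbol had the form Slc, a family number, the letter a and a number, and when its raw counts summed to at least 10 over the 12 libraries. Of 56722 rows in the count table, 61 carried such a symbol and 51 reached the minimum. The members just above the minimum were Slc1a7 with 10 summed counts and Slc6a7 with 22. Among the 10 rows below it were Slc38a5, Slc7a14, Slc6a11, Slc6a16, Slc6a21, Slc6a5, Slc38a8, Slc36a3 and Slc6a3. Poly(A) RNA was sequenced from whole kidneys of mice of 1 genotype, Pod-TRECK, whose podocytes can be injured by diphtheria toxin. Controls received no treatment, and the other groups received 100 ng of the toxin into the peritoneum and were sampled 5, 14 or 21 days later, with 3 biological replicates in each of the 4 groups. The sources used here do not give the age or sex of the mice or the promoter that drives the toxin receptor. Since the controls were not injected, toxin and injection cannot be told apart.

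The proximal tubule takes filtered amino acids back from the urine. Carriers on its brush border, the side that faces the urine, bring them into the cell, and exchangers on the side that faces the blood let them out. Several of these proteins work as pairs, in which a heavy chain of family 3 (Slc3a1 or Slc3a2) brings a light chain of family 7 to the membrane. Other members of these families supply single cells with amino acids, creatine, taurine or glycine, or carry amino acids out of lysosomes.

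The libraries held between 31023852 and 46420299 counts, and the members together took 0.246 to 0.337% of them. Levels are given as CPM, counts relative to library size, after TMM scaling, which matches libraries on the bulk of their genes. The mean TMM factor was 0.793 in controls and 1.31 at day 14. Against scaling by library totals alone, this choice matters: over all genes, fold changes from controls were then higher by a median of 0.73 (log2) at day 14, 0.49 at day 21 and 0.14 at day 5. Mitochondrially encoded genes took 22.4 to 23.7% of counts in controls and 8.98 to 9.46% at day 14. The library of day-21 replicate 2 stood apart from the other day-21 libraries: on the first principal component of all tested genes it lay at -36.8, beside day 5 (-44.5 to -37.4), and the other day-21 libraries lay at 73.0 and 80.1. On the second component replicate 2 lay at 14.3, near the other day-21 libraries (12.4 and 20.6) and away from day 5 (-56.7 to -47.9). It enters the shared estimate of the spread, so results are given with and without it. The 19 proximal tubule markers summed to between 58300 and 67400 CPM in controls, 42000 to 45400 at day 5, 5200 to 5310 at day 14, and 6970, 39200 and 5580 at day 21. The 7 podocyte markers summed to 296 to 319 CPM in controls and 88.6 to 107 CPM at day 5, where 5 of them and 5.09% of all genes were lower. They summed to 117 to 125 CPM at day 14, and to 104, 250 and 89.1 CPM in day-21 replicates 1, 2 and 3. Xist took 1 to 3 counts and the Y-linked Ddx3y 1734 to 2593 counts in every library.

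Of the 51 members, 46 had enough counts to be tested. At day 14, 13 members were higher than in controls, 19 were lower and 14 did not pass (edgeR's quasi-likelihood test over all 19821 tested genes, Benjamini-Hochberg adjusted p below 0.05). Over all tested genes 60% changed at day 14, 31.2% upwards and 28.8% downwards, so a call was common and not particular to the members. More members were lower than higher, while over all genes slightly more were higher. The median log2 fold change was 0.03 over the tested members and 0.08 over all genes. In bulk kidney RNA, fewer cells of a type and less RNA per cell cannot be told apart. With library totals alone the split at day 14 was 25 higher and 12 lower, and Slc3a2, Slc6a8, Slc38a10 and Slc1a4 changed sign (log2 fold changes of 0.11, 0.29, 0.29 and 0.28). Of these, Slc6a8 and Slc38a10 then passed as higher (adjusted p = 0.0131 and 0.00595). When each library was left out in turn, no day-14 call was lost except that of Slc1a4. Without day-21 replicate 2, 16 members were higher and 20 lower at day 14, against a background of 65.6% (34.7% upwards and 30.9% downwards).

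**Figure D1:**
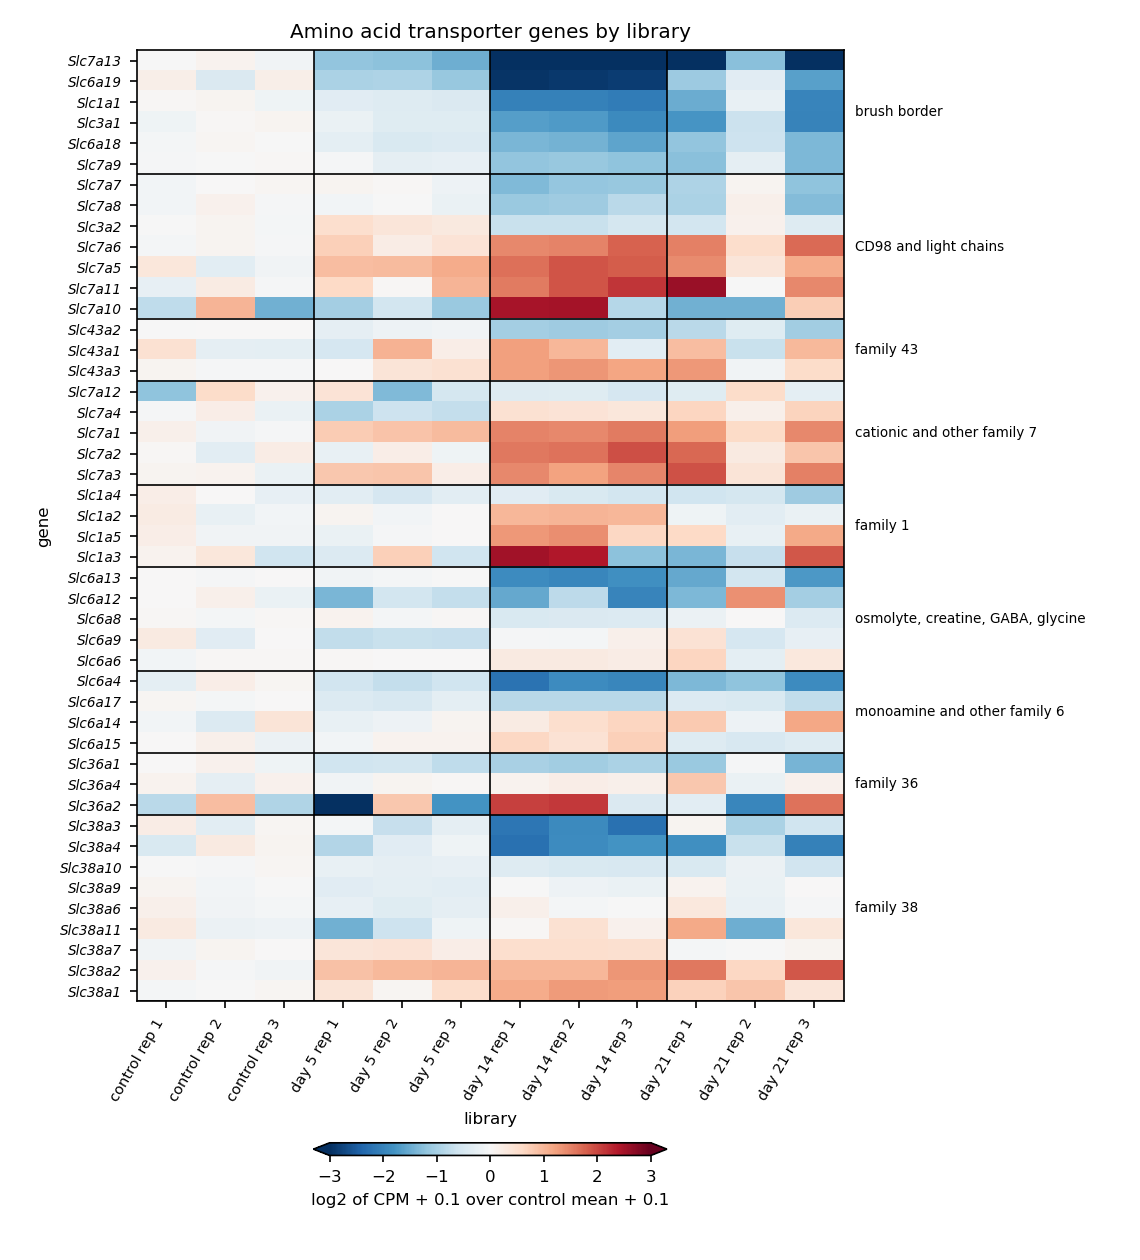
Level of the 46 tested members (rows, grouped by role) in the 12 libraries (columns), as log2 of the CPM plus 0.1 over the control mean plus 0.1, with colours saturating at 3 in either direction. The brush border rows are blue at day 14 and in day-21 replicates 1 and 3, day-21 replicate 2 is paler, and most of the other role groups hold rows of both colours at day 14.

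At day 5, 4 members were higher than in controls and 3 were lower. Over all genes 14.9% changed at day 5, 9.77% upwards and 5.09% downwards. The higher members were Slc7a5, Slc38a2, Slc7a1 and Slc38a7, and the lower ones were Slc6a19, Slc7a4 and Slc6a17. With library totals alone the split was 5 higher and 1 lower. Leaving out 1 library moved these counts to between 0 and 6 higher and 0 and 13 lower. The largest counts, 6 and 13, came without day-21 replicate 2, where the background was 32.3% (17.4% upwards and 14.9% downwards). None were lower without day-5 replicate 1, and none were higher without control replicate 3. At day 21, 9 members were higher and 14 lower against a background of 42.8% (24.3% upwards and 18.5% downwards). Without day-21 replicate 2 the counts were 16 and 20 against a background of 61.6% (33.2% upwards and 28.4% downwards), and with library totals alone they were 18 and 9.

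Between days, 12 members were higher and 16 lower at day 14 than at day 5 (background 50.9%, with 24.7% upwards and 26.1% downwards). From day 14 to day 21, 3 were higher and 4 lower (background 14.6%, with 7.03% upwards and 7.57% downwards). From day 5 to day 21, 4 were higher and 9 lower (background 26.9%, with 15% upwards and 11.8% downwards). Without day-21 replicate 2, day 14 against day 5 gave 17 higher and 18 lower (background 59.6%, with 29.5% upwards and 30.1% downwards). Day 21 against day 14 then gave 4 higher and 4 lower (background 23.9%, with 12.5% upwards and 11.4% downwards), and day 21 against day 5 gave 17 higher and 18 lower (background 55.6%, with 27.9% upwards and 27.7% downwards). With library totals alone, day 21 against day 5 gave 10 higher and 6 lower, and day 14 against day 5 gave 23 higher and 13 lower.

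The members listed as brush border transporters all fell by day 14. The list held 6 members, all of which were lower at day 14 (median log2 change -1.90, against 0.08 over all genes), 5 of which were lower at day 21 and 1 at day 5. Over all genes 28.8% were lower at day 14, 18.5% at day 21 and 5.09% at day 5. The summed level of the 6 members was 2510 to 2600 CPM in controls, 1560 to 1760 at day 5, 476 to 532 at day 14, and 661, 1590 and 539 at day 21. Without day-21 replicate 2, 5 of the 6 passed at day 5 and 6 at day 21. With all libraries, the day-21 call of Slc1a1 was -1.04 (adjusted p = 0.0300). It was lost without any 1 control library or without day-21 replicate 1 or 3, with an adjusted p of up to 0.104. The day-21 call of Slc7a9 (-0.87, adjusted p = 0.0135) was lost without day-21 replicate 1 (adjusted p = 0.0512). All 19 proximal tubule markers were also lower at day 14 (median log2 change -2.91). The part of tubule cell loss in the fall of the transporters was not tested.

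Slc7a13, a light chain that carries aspartate, glutamate and cystine in the late proximal tubule of rodents, changed the most of all members. The gene lies at chr4:19818725-19842218 (GRCm39, per the file's columns). Its level was 770, 845 and 724 CPM in controls and 343, 331 and 283 CPM at day 5. It was 1.47, 2.01 and 2.19 CPM at day 14, and 2.18, 326 and 1.74 CPM at day 21. No library of day 5, day 14 or day 21 reached the control range. The fitted fall at day 14 was 413-fold, and from day 5 to day 14 the log2 fold change was -7.40 ± 1.77 (SE, adjusted p = 0.00589). The difference at day 5, -1.29 ± 1.34, did not pass (adjusted p = 0.569), but without day-21 replicate 2 it was -1.29 ± 0.12 (adjusted p = 1.01e-05). The size of the return from day 14 to day 21 rested on that library, with 5.87 ± 1.66 with it (adjusted p = 0.0393) and 0.06 ± 0.18 without it (adjusted p = 0.836). The call of this return was also lost whichever control, day-5 or day-14 library was left out.

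Slc3a1 is the heavy chain that brings both Slc7a13 and Slc7a9 to the brush border. It was at 660, 745 and 772 CPM in controls, 631, 565 and 562 CPM at day 5, 229, 225 and 194 CPM at day 14, and 212, 464 and 181 CPM at day 21. The day-14 and control libraries did not overlap, and the log2 fold change was -1.75 ± 0.29 (adjusted p = 0.000522). Slc7a9, the light chain of the cystine and dibasic amino acid exchanger, went from 110, 111 and 115 CPM in controls to 49.5, 51.0 and 48.1 CPM at day 14 (-1.18 ± 0.23, adjusted p = 0.00131). The 3 chains changed by unequal amounts. Per kilobase of the deposited gene length, the ratio of Slc7a13 to Slc3a1 was 1.09 to 1.36 in controls, 0.587 to 0.682 at day 5 and 0.00748 to 0.0131 at day 14. The ratio of Slc7a9 to Slc3a1 was 0.0935 to 0.105 in controls and 0.136 to 0.156 at day 14. At day 21 the first ratio was 0.0120, 0.818 and 0.0112 in replicates 1, 2 and 3.

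The start region of Slc3a1 is shown because it was the only one of 34 members with an entry in RefSeq's promoter table (GRCm38.p6, windows of 300 bases) to hold CAAAGTCCA, a core of the sequence bound by the tubular factor HNF4. The match is in capitals, and the stretch runs from 250 bases before the start to 10 bases after it.
Slc3a1, chr17:85028097-85028356, plus strand: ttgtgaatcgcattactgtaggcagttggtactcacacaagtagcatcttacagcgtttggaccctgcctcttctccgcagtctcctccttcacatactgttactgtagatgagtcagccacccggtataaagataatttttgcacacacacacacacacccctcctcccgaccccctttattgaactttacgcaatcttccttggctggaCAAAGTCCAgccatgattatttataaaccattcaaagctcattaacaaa
This motif, on either strand, was found for 0.555% of all 27025 genes listed there. A match is a string of letters and not a shown binding site. Hnf4a itself was at 624, 752 and 676 CPM in controls and at 235, 233 and 254 CPM at day 14 (log2 fold change -1.51 ± 0.32, adjusted p = 0.00208). Ppargc1a, a co-activator of mitochondrial genes, was at 77.3, 77.9 and 83.7 CPM in controls and 31, 28.3 and 30.3 CPM at day 14 (-1.41 ± 0.15, adjusted p = 4.23e-05). Hnf4g was lower at day 5 (-0.64 ± 0.14, adjusted p = 0.00939). Of the 8 tubular transcription factors listed, 5 were lower and 2 higher at day 14, where 28.8% of all genes were lower and 31.2% higher.

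Slc6a19 and Slc6a18 carry neutral amino acids and glycine with sodium across the brush border. Slc6a19 (chr13:73827864-73852984, GRCm39) was at 321, 212 and 321 CPM in controls and 148, 150 and 130 CPM at day 5. It was at 37.2, 38.5 and 39.3 CPM at day 14 and at 134, 226 and 92.7 CPM at day 21. The day-5 libraries all lay below the controls (-1.0 ± 0.27, adjusted p = 0.0310), a call that was lost without any 1 of 6 libraries (control replicates 1 and 3, each day-5 replicate and day-14 replicate 2), with an adjusted p of up to 0.114. At day 14 the log2 fold change was -2.89 ± 0.29 (adjusted p = 2.82e-05). Slc6a18 was at 371, 404 and 387 CPM in controls and at 149, 146 and 129 CPM at day 14 (-1.45 ± 0.17, adjusted p = 6.38e-05). Slc1a1, the sodium-coupled carrier of glutamate and aspartate, was at 276, 288 and 250 CPM in controls and 66.1, 66.2 and 63.3 CPM at day 14 (-2.06 ± 0.35, adjusted p = 0.000540).

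**Figure D2:**
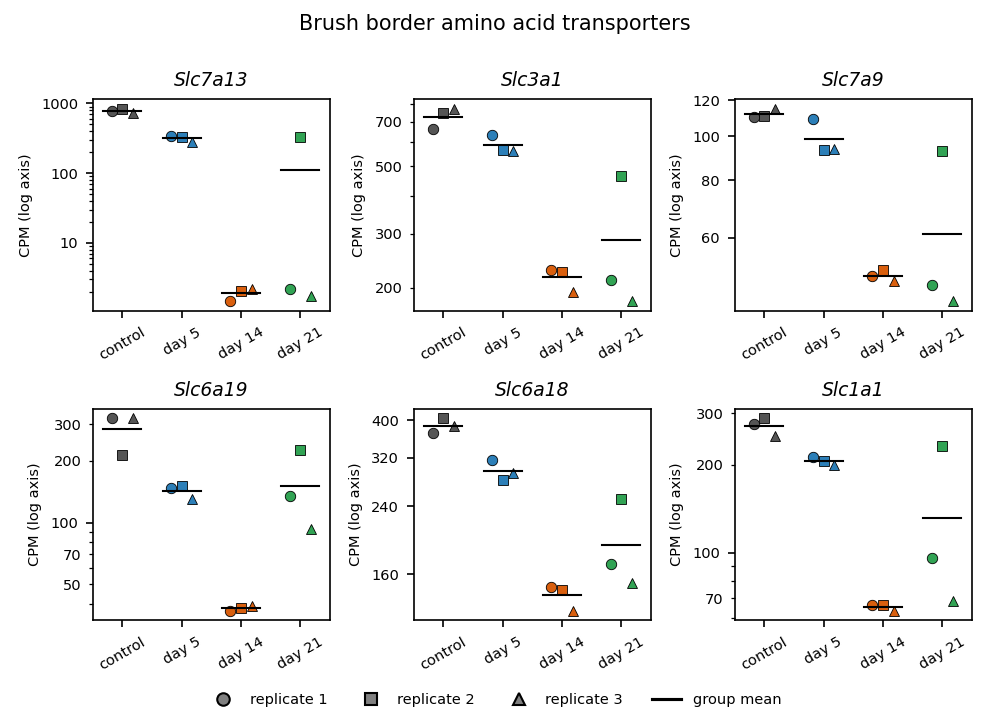
CPM (log axis, scaled per panel) of the 6 brush border transporters in each library, by group; symbols mark replicates and bars mark group means. Day 14 lies below controls in every panel, and at day 21 replicate 2 (square) lies above replicates 1 and 3 in every panel.

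The RNA for a protein that holds these carriers in the membrane changed as well. Cltrn, which the kidney carriers Slc6a19 and Slc6a18 need at the brush border, was at 1550, 1660 and 1550 CPM in controls, 291, 303 and 320 CPM at day 14, and 487, 1510 and 356 CPM at day 21. Its log2 fold change at day 14 was -2.38 ± 0.43 (adjusted p = 0.000837). The proline carriers Slc6a20a and Slc6a20b, left out of the members by their letter suffix, went from 72.3, 72.2 and 78.4 CPM to 36.8, 40.2 and 38 CPM and from 304, 334 and 324 CPM to 37.7, 37.8 and 42.4 CPM between controls and day 14. Both changes passed (-0.95 ± 0.22 and -3.03 ± 0.63, adjusted p = 0.00339 and 0.00185). These near-identical copies can share reads, so how the fall divides between them is uncertain. Of the 25 genes on the list of other amino acid and peptide carriers and their partners, 20 were tested, and 3 were higher and 12 lower at day 14 (median log2 change -0.71). Over all genes 31.2% were higher and 28.8% lower at day 14.

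Among these other carriers, Slc15a3, a lysosomal carrier of peptides and histidine found in macrophages, had the smallest adjusted p. It was at 1.60, 1.33 and 1.08 CPM in controls, 2.57, 2.91 and 2.68 CPM at day 5, and 7.89, 7.59 and 9.91 CPM at day 14 (2.66 ± 0.20 at day 14, adjusted p = 6.47e-06). Slc25a12, the mitochondrial exchanger of aspartate and glutamate, went from 81.6, 71.8 and 81.2 CPM in controls to 36.8, 36.3 and 36.2 CPM at day 14 (-1.10 ± 0.17, adjusted p = 0.000302). Slc25a29, a mitochondrial carrier of basic amino acids, was lowest at day 5, with 1.12, 1.26 and 1.47 CPM against 2.97, 3.34 and 3.15 CPM in controls (-1.29 ± 0.19, adjusted p = 0.00116). Slc16a10, a basolateral exporter of aromatic amino acids, was at 41.1, 45.3 and 50.9 CPM in controls, 57.6, 64.9 and 58.9 CPM at day 5, and 34.4, 33.6 and 33.3 CPM at day 14. Its day-14 difference passed (-0.44 ± 0.13, adjusted p = 0.0151) and its day-5 difference did not (0.40 ± 0.13, adjusted p = 0.0679), although all day-5 libraries lay above the controls.

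The order of the members by level also changed. Per kilobase, the brush border list made up 71.2 to 71.5% of the members' summed level in controls, 59.1 to 60.8% at day 5, 34.2 to 37.1% at day 14, and 38, 59.8 and 35.4% at day 21. In controls the highest members were Slc7a13 at 298 CPM per kilobase (277 to 323 over the libraries) and Slc3a1 at 238 (217 to 253), followed by Slc6a18 at 84.5, Slc6a19 at 55.7 and Slc3a2 at 48.0. The ranges of Slc6a19 and Slc3a2 overlapped. At day 14 the order was Slc3a1 at 70.9, Slc6a6 at 33.7, Slc3a2 at 31.3, Slc6a18 at 30.8 and Slc6a8 at 25.6. The range of Slc3a2 (30.4 to 33.1) overlapped with those of Slc6a6 (33.0 to 34.2) and Slc6a18 (28.2 to 32.5), which did not overlap with each other. The taurine carrier Slc6a6 moved from the ninth place to the second, although its own change in CPM at day 14 did not pass with all libraries and TMM scaling.

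On the side facing the blood, the heavy chain CD98 (Slc3a2) pairs with several light chains, which moved in opposite directions. Of the 7 genes on this list, 3 rose at day 14 (Slc7a5, Slc7a6 and Slc7a11), 3 fell (Slc3a2, Slc7a7 and Slc7a8) and Slc7a10 did not pass, against a background of 31.2% upwards and 28.8% downwards. The light chains that fell are those known for the kidney's own export of amino acids. Slc7a7, the basolateral exporter of lysine and arginine, went from 128, 138 and 143 CPM in controls to 145, 139 and 123 CPM at day 5 and 54.2, 60.6 and 62.4 CPM at day 14 (-1.20 ± 0.26 at day 14, adjusted p = 0.00242). Slc7a8, a basolateral exchanger of neutral amino acids, went from 96.7, 112 and 99.8 CPM to 47.1, 49.1 and 59.0 CPM at day 14 (-0.99 ± 0.29, adjusted p = 0.0133). For both, day 5 overlapped with controls, and at day 14 every library was below them. With library totals alone the fall of Slc7a8 did not pass (-0.26, adjusted p = 0.257).

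The light chains that rose started from low levels. Slc7a5, an importer of large neutral amino acids (chr8:122607889-122634433, GRCm39), was at 2.40, 1.48 and 1.73 CPM in controls, 3.66, 3.69 and 4.17 CPM at day 5, 6.10, 7.14 and 6.82 CPM at day 14, and 5.16, 2.44 and 4.14 CPM at day 21. Every toxin library exceeded every control library. Its log2 fold changes were 1.04 ± 0.26 (adjusted p = 0.0218) at day 5, 1.84 ± 0.26 (adjusted p = 0.000206) at day 14 and 1.07 ± 0.26 (adjusted p = 0.0100) at day 21. The day-5 call was lost, with an adjusted p of up to 0.0940, without control replicate 2 or 3 or without day-5 replicate 2 or 3. Slc7a6, which exchanges arginine for neutral amino acids, was at 3.62, 4.01 and 3.67 CPM in controls and 10.4, 10.8 and 13.0 CPM at day 14 (1.59 ± 0.26, adjusted p = 0.000462). Slc7a11, the light chain of the cystine and glutamate exchanger that supplies cystine for glutathione, had 4, 7 and 5 raw counts in controls and 35, 35 and 43 at day 14. Its log2 fold change was 2.39 ± 0.67 (adjusted p = 0.0101). At day 21 it had 61, 5 and 26 counts, and the call there (2.22 ± 0.68, adjusted p = 0.0243) was lost without any 1 control library or without day-21 replicate 1, with an adjusted p of up to 0.118.

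The heavy chain itself did not follow the chains that rose. Slc3a2 (chr19:8684246-8700733, GRCm39) was at 174, 187 and 169 CPM in controls and above them at day 5, with 251, 228 and 217 CPM. The day-5 difference was 0.39 ± 0.15 (adjusted p = 0.113), and without day-21 replicate 2 it was 0.39 ± 0.07 (adjusted p = 0.00171). At day 14 it was at 112, 112 and 122 CPM, below every control library (-0.62 ± 0.15, adjusted p = 0.00497), a direction that reverses with library totals alone (0.11). Per kilobase, Slc7a5, Slc7a6 and Slc7a11 together made up 2.21 to 2.73% of the summed level of those 3 chains with Slc7a7 and Slc7a8 in controls. That share was 3.43 to 4.43% at day 5, 14.7 to 14.8% at day 14, and 11.9, 3.05 and 14.3% at day 21. It does not depend on the scaling of the libraries.

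**Figure D3:**
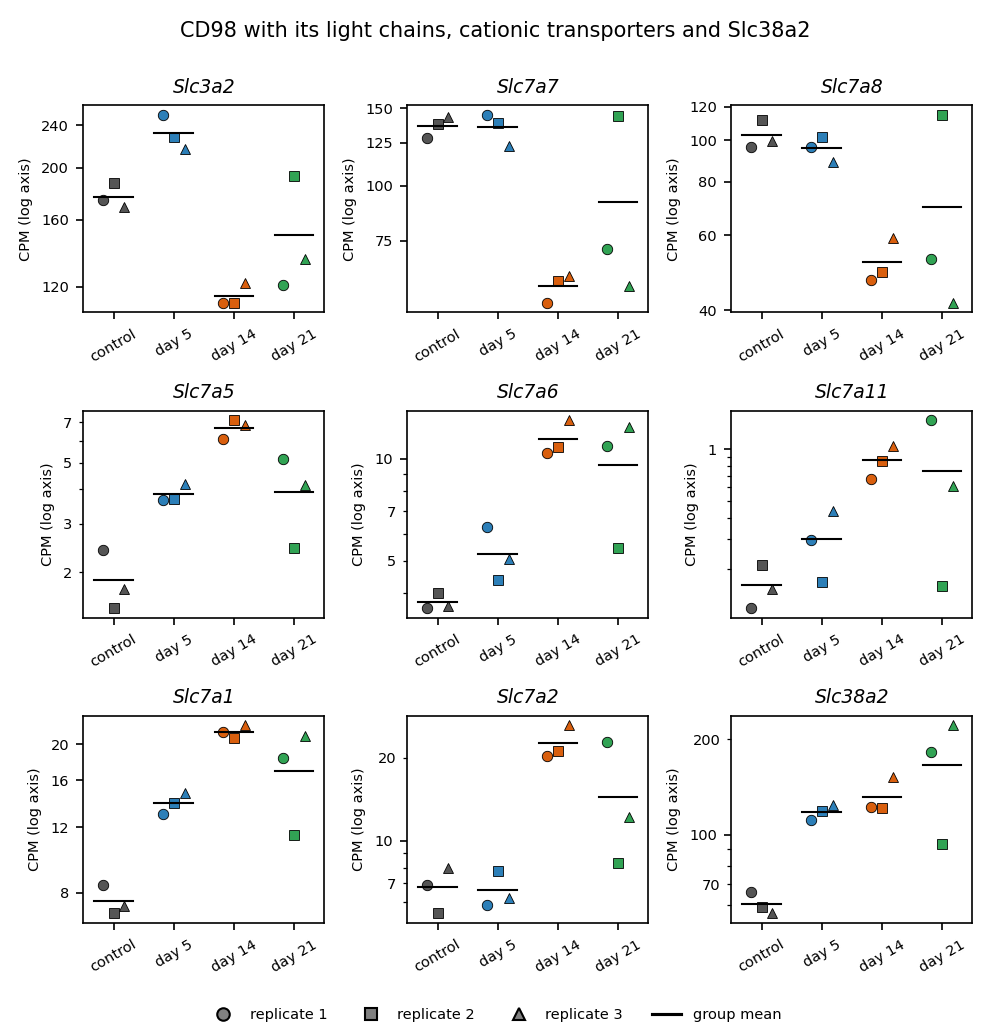
CPM (log axis, scaled per panel) of CD98 (Slc3a2), 5 of its light chains, the cationic transporters Slc7a1 and Slc7a2, and Slc38a2 in each library, by group; symbols mark replicates and bars mark group means. Slc7a7 and Slc7a8 lie below controls at day 14, whereas Slc7a5, Slc7a6, Slc7a11, Slc7a1, Slc7a2 and Slc38a2 lie above them.

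The start regions of Slc7a11, Slc1a4 and Slc7a7 are shown because these were the 3 of 34 members whose windows held TGATGNAA, a composite element bound by ATF4 with a C/EBP partner when amino acids are short. Matches on either strand are in capitals, and each stretch runs from 250 bases before the start to 10 bases after it (RefSeq, GRCm38.p6).
Slc7a11, chr3:50443604-50443863, minus strand: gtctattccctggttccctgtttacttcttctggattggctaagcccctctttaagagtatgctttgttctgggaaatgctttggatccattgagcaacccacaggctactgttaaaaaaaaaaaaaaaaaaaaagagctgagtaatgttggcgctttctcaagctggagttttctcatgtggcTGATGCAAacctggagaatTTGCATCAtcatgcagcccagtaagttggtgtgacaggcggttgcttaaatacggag
Slc1a4, chr11:20332704-20332963, minus strand: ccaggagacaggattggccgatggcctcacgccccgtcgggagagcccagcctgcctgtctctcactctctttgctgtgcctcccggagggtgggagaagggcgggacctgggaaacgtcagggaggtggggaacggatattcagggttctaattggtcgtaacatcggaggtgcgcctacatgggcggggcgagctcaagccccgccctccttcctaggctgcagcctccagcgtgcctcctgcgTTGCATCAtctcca
Slc7a7, chr14:54417935-54418194, minus strand: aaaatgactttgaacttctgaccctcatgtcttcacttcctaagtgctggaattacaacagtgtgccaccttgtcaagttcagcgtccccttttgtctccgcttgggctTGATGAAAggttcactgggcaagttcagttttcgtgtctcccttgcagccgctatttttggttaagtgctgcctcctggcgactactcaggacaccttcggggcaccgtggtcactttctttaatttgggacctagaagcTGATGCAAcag
Slc7a11 held a pair of matches facing each other, which start 66 and 47 bases before the start of the gene. Among all genes 4.51% held the motif, and among the members 8.82%. The genes that held it did not move together: at day 14 Slc7a11 rose, while Slc1a4 and Slc7a7 fell, and the fall of Slc1a4 reversed with library totals alone (0.28). TGACNNNGC, the core bound by NRF2, was in the windows of 7 members (Slc36a1, Slc38a2, Slc43a1, Slc6a13, Slc6a9, Slc7a1 and Slc7a6), 20.6% against 14% of all genes. The element of the osmotic stress factor NFAT5, also searched on both strands, was in the windows of no member and of 5.82% of all genes. Nfe2l2, which encodes NRF2, and Nfat5 were both higher at day 14 (0.61 ± 0.13 and 0.71 ± 0.13, adjusted p = 0.00214 and 0.000743).

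Most of the listed genes that ATF4 switches on during amino acid shortage were higher at day 5. Of 18 such genes, 13 were higher, none were lower and 5 did not pass, where 9.77% of all genes were higher, with a median log2 change of 1.23 against 0.00 over all genes. At day 14, 13 were higher and 3 lower, where 31.2% of all genes were higher and 28.8% lower. At day 21, 10 were higher and 1 lower, where 24.3% of all genes were higher and 18.5% lower. Atf4 itself was at 53.2, 64.4 and 53.8 CPM in controls and 80.3, 77.2 and 75.6 CPM at day 5, where all libraries lay above the controls and the difference did not pass (0.44 ± 0.15, adjusted p = 0.0750). Psat1, an enzyme of serine synthesis, was at 32, 33.1 and 36.3 CPM in controls, 96.5, 104 and 114 CPM at day 5 and 26.2, 27.3 and 26.2 CPM at day 14. It rose at day 5 (1.63 ± 0.09, adjusted p = 5.98e-06) and was lower than in controls at day 14 (-0.35 ± 0.08, adjusted p = 0.00441). Sesn2, a leucine-sensing inhibitor of mTORC1, went from 24.8, 34.1 and 29.9 CPM to 98.3, 89.6 and 88.0 CPM at day 5 (1.64 ± 0.14, adjusted p = 7.14e-05). Aldh18a1, of proline synthesis, and Nupr1, a stress-induced nuclear protein, were higher at day 14 by 2.55 ± 0.19 and 1.83 ± 0.13 (adjusted p = 5.79e-06 and 5.42e-06). The mitochondrial serine enzyme Shmt2 was among the 3 that fell, from 162, 157 and 161 CPM to 27.1, 26.7 and 29.4 CPM at day 14 (-2.53 ± 0.42, adjusted p = 0.000476).

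The cationic amino acid transporters Slc7a1, Slc7a2 and Slc7a3 rose by day 14. Of the 5 tested genes on their list, these 3 were higher at day 14 (background 31.2% upwards) and 4 at day 21 (background 24.3%), none were lower at either time, and Slc7a4 and Slc7a12 did not pass at day 14. Slc7a1, the general importer of arginine and lysine, was at 8.42, 7.05 and 7.38 CPM in controls, 13.0, 13.9 and 14.8 CPM at day 5, 21.6, 20.8 and 22.5 CPM at day 14, and 18.4, 11.4 and 21.0 CPM at day 21. No toxin library overlapped with controls, and the log2 fold changes were 0.87 ± 0.18 (adjusted p = 0.00983), 1.51 ± 0.19 (adjusted p = 9.32e-05) and 1.15 ± 0.18 (adjusted p = 0.00173). The first of these was just lost without control replicate 3 (adjusted p = 0.0508). Slc7a2, an arginine importer known from macrophages and liver, overlapped with controls at day 5 and rose at day 14, from 6.94, 5.45 and 8.0 CPM in controls to 5.84, 7.80 and 6.18 CPM and then 20.4, 21.2 and 26.3 CPM (1.73 ± 0.31 at day 14, adjusted p = 0.000794). Its day-21 call (1.09 ± 0.31, adjusted p = 0.0186) was lost without control replicate 1 or 2 or day-21 replicate 1, with an adjusted p of up to 0.0731. All 12 macrophage and monocyte markers were higher at day 14, and their sum went from 87.8 to 116 CPM in controls to 990 to 1020 CPM, a shift whose part in the rise of Slc7a2 was not tested. Slc7a3 rose at day 14 from 2, 2 and 1 raw counts to 16, 10 and 13 (2.46 ± 0.61, adjusted p = 0.00518).

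Slc7a4, a family member with no transport shown for it alone, dipped first. It was at 3.35, 3.95 and 2.96 CPM in controls and at 1.72, 2.18 and 2.03 CPM at day 5 (-0.79 ± 0.18, adjusted p = 0.0147), then at 4.71, 4.54 and 4.36 CPM at day 14 and 5.42, 3.79 and 5.45 CPM at day 21. The day-5 fall was lost without day-5 replicate 1 (adjusted p = 0.0614) and with library totals alone (-0.64, adjusted p = 0.120). The day-14 difference passed without day-21 replicate 2 (0.40 ± 0.14, adjusted p = 0.0224) and with library totals alone (1.14, adjusted p = 0.00158), and the day-21 rise (0.52 ± 0.18, adjusted p = 0.0368) was lost in 8 of 12 cases of leaving out 1 library, with an adjusted p of up to 0.152. Slc7a12, a kidney exchanger of small neutral amino acids, varied among replicates more than between groups. Its libraries were at 18.7, 63.5 and 47.7 CPM in controls, 57.8, 17.2 and 30 CPM at day 5, 33.1, 33.7 and 30.4 CPM at day 14, and 33.4, 63.6 and 35.5 CPM at day 21, and no comparison with controls passed.

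In family 38, whose members carry glutamine and other small neutral amino acids with sodium, 3 of 9 rose and 3 fell at day 14, shares near the background of 31.2% upwards and 28.8% downwards. Slc38a2, an importer that cells raise when amino acids are short (chr15:96585273-96597611, GRCm39), was at 65.9, 59.4 and 56.6 CPM in controls, 111, 119 and 124 CPM at day 5, 122, 121 and 152 CPM at day 14, and 182, 93.8 and 221 CPM at day 21. Every toxin library was above the controls. The log2 fold changes were 0.96 ± 0.24 (adjusted p = 0.0237), 1.12 ± 0.24 (adjusted p = 0.00251) and 1.45 ± 0.25 (adjusted p = 0.00228). Leaving out any 1 control or day-5 library ended the day-5 call, with an adjusted p of up to 0.101. Slc38a1, a carrier of the same kind, went from 3.29, 3.40 and 3.55 CPM to 7.48, 8.42 and 8.30 CPM at day 14 (1.24 ± 0.16, adjusted p = 0.000114). Slc38a7, a lysosomal glutamine exporter, rose at day 5 and day 14 and was back in the control range at day 21, with 12.6, 14.4 and 13.5 CPM, then 17.4, 18 and 15.4 CPM, 19.2, 19.1 and 19.0 CPM, and 12.9, 13.4 and 14.3 CPM. The differences were 0.33 ± 0.09 (adjusted p = 0.0275), 0.50 ± 0.09 (adjusted p = 0.000640) and 0.01 ± 0.09 (adjusted p = 0.957). The day-5 call of Slc38a7 was lost without any 1 of 6 libraries (each control, day-5 replicate 1 or 2, or day-14 replicate 2), with an adjusted p of up to 0.171.

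The members of family 38 that fell include Slc38a3, a glutamine carrier of the basolateral side of the tubule that delivers glutamine for making ammonia in acidosis (chr9:107527833-107546729, GRCm39). It was at 33.0, 22.7 and 29.5 CPM in controls, 27.4, 17.5 and 23.5 CPM at day 5, 6.27, 7.54 and 5.97 CPM at day 14, and 29.9, 14.7 and 18.8 CPM at day 21. The day-14 libraries lay apart from all others (-2.11 ± 0.26 against controls, adjusted p = 9.75e-05). Slc38a4 went from 2.17, 3.65 and 3.21 CPM to 0.559, 0.736 and 0.804 CPM at day 14 (-2.10 ± 0.40, adjusted p = 0.00102). Slc38a10 went from 139, 137 and 145 CPM to 108, 103 and 100 CPM (-0.43 ± 0.10, adjusted p = 0.00385). That direction reverses with library totals alone, where Slc38a10 passed as higher (0.29, adjusted p = 0.00595). Slc38a9, the lysosomal arginine sensor of mTORC1, Slc38a6 and Slc38a11 did not pass against controls at any day. Slc38a9 and Slc38a6 were, with library totals alone, higher at day 14 (0.61 and 0.76, adjusted p = 0.00826 and 0.00584) and at day 21 (0.47 and 0.54, adjusted p = 0.0342 and 0.0372). Slc38a9 was lower at day 5 without day-21 replicate 2 (-0.32 ± 0.08, adjusted p = 0.0118) and with median-of-ratios factors (-0.35, adjusted p = 0.0386).

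Among the osmolyte, creatine, GABA and glycine carriers of family 6, Slc6a13 and Slc6a8 fell at day 14 and the other 3 did not pass. Over all genes 28.8% were lower at day 14. Slc6a13, a carrier of GABA and taurine, overlapped with controls at day 5 and was lower at day 14, from 79.5, 77.2 and 80.0 CPM in controls to 73.5, 75.9 and 78.2 CPM and then 21.1, 20.2 and 22.0 CPM. At day 21 it was at 27.1, 53.5 and 24.0 CPM. The log2 fold change was -1.90 ± 0.24 (adjusted p = 0.000104) at day 14 and -1.18 ± 0.23 (adjusted p = 0.00427) at day 21. The creatine carrier Slc6a8 went from 185, 174 and 187 CPM to 133, 134 and 136 CPM (-0.44 ± 0.11, adjusted p = 0.00524). That direction reverses with library totals alone, where Slc6a8 passed as higher (0.29, adjusted p = 0.0131). The taurine carrier Slc6a6 was at 238, 257 and 259 CPM in controls, 301, 303 and 293 CPM at day 14, and 391, 206 and 313 CPM at day 21. Its day-14 libraries did not overlap with controls, yet the difference of 0.25 ± 0.18 did not pass (adjusted p = 0.252), and without day-21 replicate 2 it was 0.24 ± 0.08 (adjusted p = 0.0158). By library totals alone it was 0.98 (adjusted p = 0.00405). The glycine carrier Slc6a9 was lower at day 5 than at day 14 (difference 0.72 ± 0.22, adjusted p = 0.0180, lost without day-5 replicate 1 or 3 or day-14 replicate 3, at up to 0.0602), with 8.78, 9.29 and 9.10 CPM and then 14.4, 14.1 and 16.4 CPM. The betaine carrier Slc6a12 was below 1 CPM in 11 libraries and at 1.67 CPM in day-21 replicate 2. Without that library it was lower than in controls at day 14 (-1.80 ± 0.43, adjusted p = 0.00308) and day 21 (-1.52 ± 0.48, adjusted p = 0.0169). Among 5 other genes of osmolyte accumulation, Slc5a3, the inositol carrier, was the 1 that changed at day 14, from 142, 151 and 169 CPM to 72.6, 69.1 and 65.7 CPM (-1.16 ± 0.20, adjusted p = 0.000717), and the heat shock genes Hspa1a, Hspa1b and Hspa4l passed at no day. Without day-21 replicate 2, Hspa1a was lower at day 5 (-0.55, adjusted p = 0.0314), and Hspa4l was higher at day 5 (0.31, adjusted p = 0.0312) and lower at day 21 (-0.49, adjusted p = 0.00239).

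Of the remaining carriers of family 6, the serotonin carrier Slc6a4 was at 3.80, 5.36 and 4.91 CPM in controls and 0.926, 1.2 and 1.14 CPM at day 14 (-2.10 ± 0.22, adjusted p = 3.61e-05). Slc6a17, a vesicular carrier of neutral amino acids in neurons, went from 15.5, 14.2 and 15.0 CPM to 11.2, 10.6 and 12.2 CPM at day 5 and 8.35, 8.37 and 8.35 CPM at day 14 (-0.83 ± 0.10 at day 14, adjusted p = 9.96e-05). Its day-5 fall (-0.39 ± 0.10, adjusted p = 0.0270) was lost without control replicate 1 or 3 or day-5 replicate 1 or 2, with an adjusted p of up to 0.112. Neither fall of Slc6a17 passed with library totals alone (-0.25 at day 5 and -0.11 at day 14, adjusted p = 0.241 and 0.473). Slc6a15, a carrier of branched-chain amino acids and proline (chr10:103203644-103255238, GRCm39), was the only member called in opposite directions at days 14 and 21. It was at 22.2, 24.6 and 19.6 CPM in controls, 33.9, 30 and 36.1 CPM at day 14, and 17.0, 15.8 and 16.9 CPM at day 21. All day-21 libraries, replicate 2 included, lay below the controls. The day-14 rise was 0.59 ± 0.10 (adjusted p = 0.000655) and the day-21 fall -0.42 ± 0.10 (adjusted p = 0.0106), the latter reversing with library totals alone (0.07).

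In family 1, 2 of 4 tested members rose at day 14 and 1 fell, where 60% of all genes changed (31.2% upwards and 28.8% downwards). Slc1a5, an exchanger of glutamine and other neutral amino acids, was at 26.9, 21.9 and 21.8 CPM in controls and 58.0, 62.2 and 36.3 CPM at day 14 (1.15 ± 0.29, adjusted p = 0.00564). Slc1a2, a glutamate carrier best known from brain, rose only at day 14: it was at 4.42, 3.19 and 3.52 CPM in controls, 3.93, 3.5 and 3.72 CPM at day 5, 7.52, 7.61 and 7.45 CPM at day 14, and 3.39, 2.95 and 3.20 CPM at day 21. The tests of that peak are 1.02 ± 0.14 against controls (adjusted p = 0.000162), 1.02 ± 0.14 against day 5 (adjusted p = 0.000345) and -1.24 ± 0.14 from day 14 to day 21 (adjusted p = 0.000871). Slc1a4, an exchanger of serine and alanine, was at 22.2, 19.6 and 16.4 CPM in controls and 15.2, 14.2 and 13.2 CPM at day 14 (-0.45 ± 0.15, adjusted p = 0.0229). That call was lost without control replicate 1 or without day-14 replicate 2 or 3, at adjusted p of up to 0.0757, and its sign reversed with library totals alone (0.28).

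In family 43, which moves amino acids down their gradient, Slc43a2 and Slc43a3 went opposite ways. Slc43a2, a basolateral exporter of large neutral amino acids in the tubule, was at 157, 160 and 161 CPM in controls and 78.2, 75.9 and 78.5 CPM at day 14 (-1.04 ± 0.14, adjusted p = 0.000158). Slc43a3, which carries purine bases, was at 20.2, 18.5 and 18.6 CPM in controls and 45.3, 47.7 and 43.7 CPM at day 14 (1.26 ± 0.27, adjusted p = 0.00225). In neither did day 14 overlap with controls. In family 36, Slc36a1, a proton-coupled exporter of lysosomes, went from 65.1, 70.4 and 59.1 CPM to 42.6, 44.3 and 38 CPM at day 5 and 33.1, 31.6 and 33.3 CPM at day 14. The day-14 fall passed (-0.99 ± 0.27, adjusted p = 0.00848) but not with library totals alone (-0.26, adjusted p = 0.198). The day-5 difference of -0.64 ± 0.27 did not (adjusted p = 0.140), and without day-21 replicate 2 it was -0.64 ± 0.09 (adjusted p = 0.000222). Slc36a4 did not pass against controls at any day (0.16 ± 0.21 at day 14, adjusted p = 0.521). It was higher at day 21 without day-21 replicate 2 (0.51 ± 0.17, adjusted p = 0.0229) and, with library totals alone, at days 14 and 21 (0.89 and 0.83, adjusted p = 0.0116 and 0.0218).

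By day 21 a few of the fallen carriers were higher again than at day 14, with different extents. Slc6a19 rose from day 14 to day 21 by 1.98 ± 0.28 (adjusted p = 0.00231), and by 1.56 ± 0.18 without day-21 replicate 2 (adjusted p = 0.000270). Slc38a3 rose by 1.68 ± 0.26 (adjusted p = 0.00349), and by 1.89 ± 0.23 without that library (adjusted p = 0.000373). In both genes every day-21 library was above every day-14 library. Slc3a1, Slc7a9 and Slc6a18 did not pass from day 14 to day 21, with 0.40 ± 0.29, 0.30 ± 0.23 and 0.43 ± 0.16 (adjusted p = 0.349, 0.382 and 0.0989), and without that library the values were -0.14, -0.12 and 0.18. Slc7a13 stayed at 2.18 and 1.74 CPM in day-21 replicates 1 and 3. Against controls at day 21, Slc6a19 was still lower (-0.92 ± 0.27, adjusted p = 0.0212), a call lost without control replicate 1 or 3 or day-21 replicate 1 or 3 (adjusted p of up to 0.0712), and Slc38a3 did not pass (-0.43 ± 0.25, adjusted p = 0.184).

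**Figure D4:**
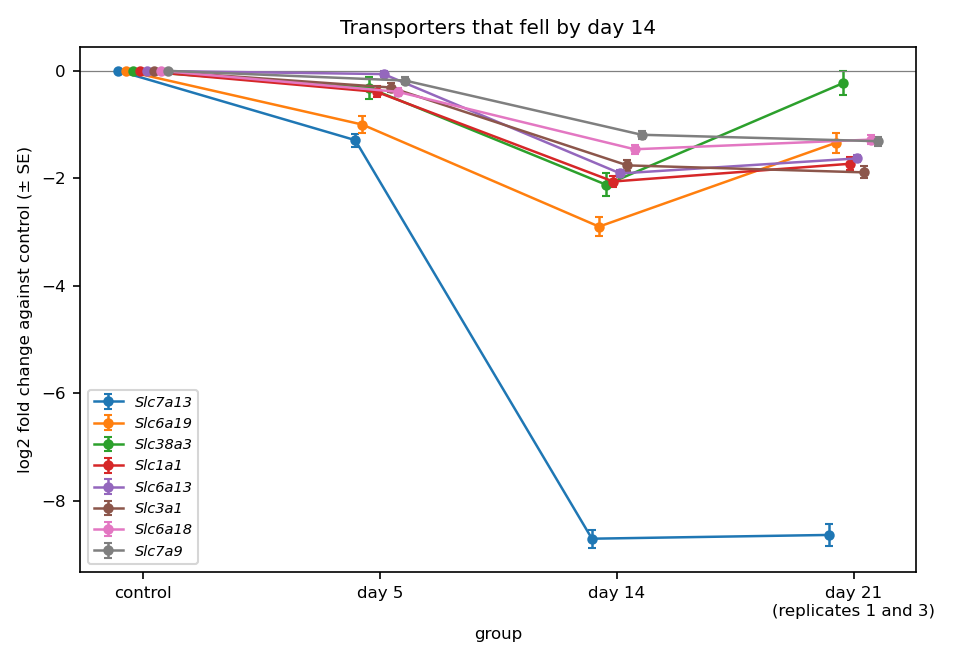
Log2 fold change against control (with SE, from the fit without day-21 replicate 2) at days 5, 14 and 21 for 8 members that fell by day 14. Slc38a3 and Slc6a19 are higher at day 21 than at day 14, whereas Slc7a13 is near -8.7 at both times (-8.71 and -8.64).

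The spread among replicates was widest at day 21. The highest library was more than 2 times the lowest for 25 members at day 21, against 2 in controls, 9 at day 5 and 5 at day 14. Slc7a10, which had a library at 0 in controls and at day 21, is left out of the counts for those groups. Without replicate 2, the genes lower at day 21 went from 5 to 6 on the brush border list and from 0 to 3 on the CD98 list. The background went from 18.5% to 28.4% downwards. Among the CD98 genes that joined were Slc7a7 (-1.06 ± 0.10, adjusted p = 3.89e-06) and Slc7a8 (-1.13 ± 0.12, adjusted p = 9.46e-06). With replicate 2 these genes had -0.57 ± 0.26 (adjusted p = 0.0949) and -0.56 ± 0.29 (adjusted p = 0.139). In that library Slc7a7 was at 144 CPM and Slc7a8 at 115 CPM, within or above their control values, while Slc7a1 (11.4 CPM) and Slc38a2 (93.8 CPM) were above theirs.

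The levels of 3 members, chosen after their values were seen, went with the fat-cell hormone gene Adipoq across libraries. Adipoq was at 4.78, 15.9 and 1.91 CPM in controls, 0, 23.5 and 2.24 CPM at day 5, 49.5, 50.3 and 2.80 CPM at day 14, and 0.315, 1.35 and 30.6 CPM at day 21. Slc36a2, a proton-coupled carrier found in brown fat and kidney, was at 0.771, 2.77 and 0.710 CPM, then 0.0660, 2.57 and 0.338 CPM, then 6.23, 6.46 and 1.02 CPM, and then 1.11, 0.289 and 4.63 CPM in the same libraries. Slc1a3, a glutamate carrier, was at 17.2, 15.9 and 1.19 CPM at day 14 and at 1.07, 1.77 and 10.8 CPM at day 21. Slc7a10, a light chain known from fat and brain, was at 1.39, 1.42 and 0.0487 CPM and at 0, 0 and 0.353 CPM in those libraries. All 3 were highest within their groups in day-14 replicates 1 and 2 and in day-21 replicate 3, the libraries with the most Adipoq. Slc7a10 followed Adipoq less closely elsewhere. It was at 0.452 CPM in control replicate 2, above its level in day-21 replicate 3. In day-5 replicate 2, where Adipoq was at 23.5 CPM, Slc7a10 was at 0.0839 CPM. The 6 adipose markers summed to 20.7 to 160 CPM in controls, 0.528 to 172 at day 5, 21.9 to 473 at day 14 and 2.03 to 312 at day 21. None of the 3 passed against controls at day 14 (Slc36a2 1.69 ± 1.13, Slc1a3 1.97 ± 0.96 and Slc7a10 2.47 ± 1.25, adjusted p = 0.219, 0.0966 and 0.111). Slc1a3 and Slc7a10 passed there with library totals alone (2.70 and 3.20, adjusted p = 0.0281 and 0.0389). Slc7a10 was called higher at day 14 than at day 5 (log2 fold change 4.27, adjusted p = 0.0358). Its raw counts were 72, 58 and 2 at day 14 and 1, 3 and 1 at day 5. That call was lost without any 1 day-5 library or without day-14 replicate 1 or 2, with an adjusted p of up to 0.113. Slc1a5 and Slc43a1 were also lowest in day-14 replicate 3 of that group, with 36.3 and 0.731 CPM. The part of attached fat in these values was not tested.

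**Figure D5:**
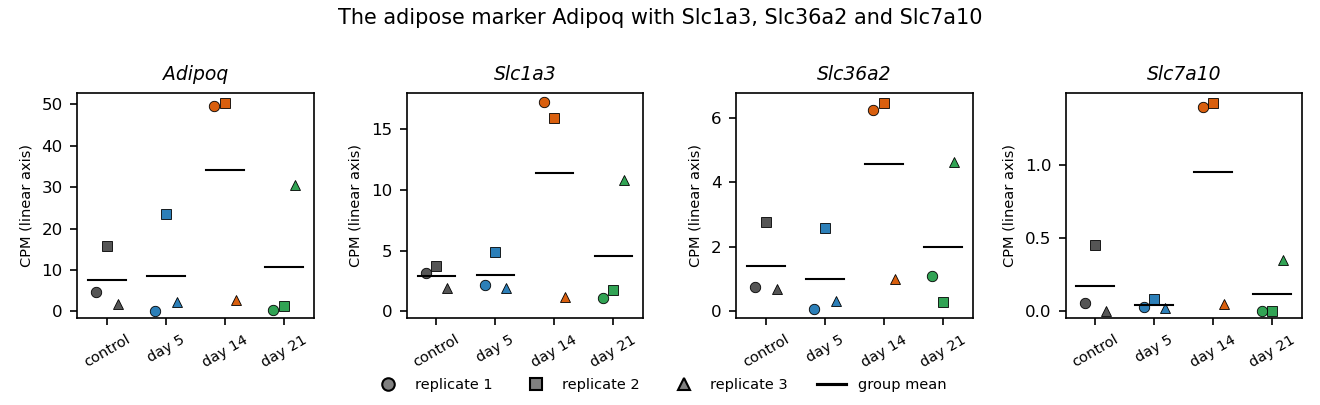
CPM (linear axis) of the adipose marker Adipoq and of Slc1a3, Slc36a2 and Slc7a10 in each library, by group; symbols mark replicates and bars mark group means. Day-14 replicates 1 and 2 and day-21 replicate 3 are the highest libraries of their groups in all 4 panels.

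The 5 members with too few counts for the test were Slc7a15 (56 summed counts), Slc1a6 (45), Slc6a2 (26), Slc6a7 (22) and Slc1a7 (10). Slc1a6, a glutamate carrier of the cerebellum, had 0, 0 and 1 counts in controls, 0, 1 and 3 at day 5, 6, 8 and 10 at day 14, and 7, 0 and 9 at day 21. The zero at day 21 was in replicate 2. The noradrenaline carrier Slc6a2 and the proline carrier Slc6a7 had at most 6 and 5 counts in any library. Slc6a14, a broad carrier of neutral and basic amino acids, and Slc43a1, an importer of large neutral amino acids, were tested at low levels and did not pass against controls at any day (0.55 ± 0.37 and 0.84 ± 0.57 at day 14, adjusted p = 0.224 and 0.225). Without day-21 replicate 2, Slc6a14 was higher at day 21 (1.11 ± 0.30, adjusted p = 0.00690). Scaled by library totals alone, Slc6a14 was higher at days 14 and 21 (1.27 and 1.35, adjusted p = 0.0216 and 0.0214) and Slc43a1 at day 14 (1.57, adjusted p = 0.0380).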

How the data were processed

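Whole-kidney poly(A) RNA was sequenced as paired ends on a NovaSeq 6000, per the labels. The deposited raw counts per gene were made by the authors with fastp 0.20.0 and featureCounts on GRCm39, per the submitters' processing notes. The aligner, annotation release and strand setting were not given in the sources used here. Without strand, reads of overlapping or antisense genes cannot be told apart. The deposited gene length, which has no unit name in the file (another numeric column, from the authors), was used only for levels per kilobase.

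Counts were fitted with edgeR 4.0.16 in R 4.3.3 (filterByExpr, TMM, quasi-likelihood test, all 12 libraries in 4 groups, Benjamini-Hochberg over 19821 genes), with calls at an adjusted p below 0.05. SE is the size of the log2 fold change over the square root of F. CPM values are counts over the fit's effective library size. Rows with no symbol held 2.14% of counts and were kept. Ddit3 has 2 overlapping rows, and the longer one was used. No 2 libraries of a group agreed within sampling noise (chi-square per degree of freedom of at least 4.9). P-values rest on the spread between replicates within groups, estimated over all 4 groups together. They therefore also depend on groups outside the comparison. Alternatives were other scalings, filters and tools (DESeq2 1.42.0, limma 3.58.1), a replicate block, fits on the 6 libraries compared, a fold change minimum and leaving out each library.

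The members and gene lists were chosen with earlier results of these data known. Values are given, by rule, for the 2 members of each role with the highest mean CPM, the largest called changes per comparison among members whose mean log2 CPM was not below 0 (6 in each direction against controls, 3 between days), members left out of the test and, of each other list, the 2 genes with the smallest adjusted p per comparison with controls. Other members were named after their values were seen. A few genes and 1 motif that the rule covers are not reported here. Promoter sequences are RefSeq's on GRCm38.p6 (34 of 51 members matched by symbol) and are not compared with GRCm39 coordinates.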

Additional observations from a re-analysis of the deposited data

Results flagged for a closer look

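Slc6a15 differed between days in direction. It rose at day 14 (log2 fold change 0.59) and fell at day 21 (-0.42) against controls, and the test of the difference between those days gave -1.01 ± 0.10 (adjusted p = 0.000731). The fall at day 21 reversed with library totals alone (0.07), and the difference between the days was called under every alternative run.

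Slc7a4 fell at day 5 (-0.79) and rose at day 21 (0.52) against controls, and the difference between those days was 1.31 ± 0.18 (adjusted p = 0.00162). The day-5 fall was lost without day-5 replicate 1 and with library totals alone. The day-21 rise was lost in 8 of 12 cases of leaving out 1 library. The difference between the days was called whichever library was left out.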

How the results depend on the processing

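Of 110 called differences of tested members, each under up to 20 alternatives, 1973 values kept direction and call, 209 kept the direction and lost the call (49 of the differences) and 9 reversed. All 9 reversals came with library totals alone: at day 14 Slc3a2 (0.11), Slc6a8 (0.29), Slc38a10 (0.29) and Slc1a4 (0.28), at day 21 Slc38a10 (0.06) and Slc6a15 (0.07), from day 5 to day 14 Slc6a8 (0.12) and Slc6a17 (0.14), and from day 5 to day 21 Slc38a7 (0.02). Of these, Slc6a8 and Slc38a10 at day 14 passed in the reversed direction (adjusted p = 0.0131 and 0.00595). Over all genes, library totals alone raised the log2 fold changes by a median of 0.73 at day 14 and 0.49 at day 21. The median was 0.58 from day 5 to day 14 and 0.34 from day 5 to day 21. The cause of this shift was not tested.

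Counts of higher and lower members moved by more than 1.5 times as follows. With library totals alone, they were 1 lower at day 5 (3 in the reported fit), 25 higher and 12 lower at day 14 (13 and 19), 18 and 9 at day 21 (9 and 14), 23 higher from day 5 to day 14 (12) and 10 higher from day 5 to day 21 (4). With only the 6 libraries compared, which leaves fewer samples, they were 16 lower at day 5, 3 higher and 2 lower at day 21, 2 lower from day 14 to day 21, and 1 higher and 0 lower from day 5 to day 21 (4 and 9). With a log2 fold change of at least 1 they were 1 higher and 0 lower at day 5, 12 lower at day 14, 6 lower at day 21, 6 higher from day 5 to day 14, 2 lower from day 14 to day 21, and 2 higher and 2 lower from day 5 to day 21. Median-of-ratios factors gave 5 lower at day 5, and DESeq2 gave 6 lower at day 5 and 5 higher from day 14 to day 21 (3). Leaving out 1 library at a time gave ranges for higher and lower members of 0 to 6 and 0 to 13 at day 5, 13 to 16 and 18 to 20 at day 14, 6 to 16 and 10 to 20 at day 21, 7 to 17 and 15 to 18 from day 5 to day 14, 2 to 11 and 3 to 7 from day 14 to day 21, and 1 to 17 and 3 to 18 from day 5 to day 21.

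The replicate numbers did not pair the samples: deviations of same-numbered libraries correlated between -0.14 and 0.17 over 18 pairs, and 4 were above 0.1. With the replicate number as a block, 13 members were higher and 20 lower at day 14, 4 and 4 at day 5, and 8 and 14 at day 21. Depth limits most the members near or below 1 CPM (Slc7a3, Slc7a10, Slc7a11, Slc6a12, Slc6a14 and Slc38a11) and the 5 that were not tested.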
